A study of Rattus norvegicus with 8 samples.

Results

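The Adamts genes encode secreted metalloproteases that carry thrombospondin repeats and act in the extracellular matrix. The 9 genes Adamts1 to Adamts9 were chosen by symbol among array features whose platform annotation gave exactly 1 gene, and where a gene had several features, 1 was selected on its mean signal over all 8 arrays, the highest being kept. This gave values for 7 of the 9 genes, among 14506 genes measured in all; Adamts6 and Adamts8 were not analysed here. Only Adamts3 had more than 1 feature, and the feature used had a mean of 6.66 log2 units while the other had 6.07. The family was singled out with earlier results of these arrays known, in which Adamts1 at 10 days and Adamts7 at 24 h already stood among the large differences, so those 2 differences are given as a description, with no p-value, and are left out of the counts of tests below; so are Adamts1 and Adamts7 in comparisons that reuse the same arrays.

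The arrays came from Sprague Dawley rat spinal cord cultures, in which embryonic neurons and glia grow together and axons become myelinated. The 4 groups were cultures kept with human FGF9, a fibroblast growth factor, at 100 ng/ml for 10 days, untreated control cultures at 10 days, cultures kept with FGF9 at 100 ng/ml for 24 h, and untreated control cultures at 24 h. Each group had 2 Affymetrix Rat Gene ST arrays, and nothing in the labels says that replicates came from separate preparations, so every p-value here reflects array-to-array spread, which may be technical. The cell type label reads myelinating culture, whereas the source field names astrocytes grown from neurospheres.

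All values are log2 array signals as deposited, so a difference of 1 is a doubling of signal, and levels of different genes cannot be set against each other. Array medians over all 29214 features lay between 6.62 and 6.73. Markers of the labelled culture were present, judged by a separate cutoff, each array's median over the 14506 genes. Above that cutoff on all 8 arrays lay 10 of 10 measured neuron markers and 5 of 7 of myelinating oligodendrocytes. So did 7 of 8 astrocyte markers, against 0 of 8 endothelial markers. The pair of arrays numbered replicate 2 at 10 days stood apart. They correlated at 0.968 with each other and at 0.897 to 0.940 with the other 6 arrays, which correlated at 0.962 to 0.989 among themselves. The mean of 7 fibroblast and meningeal markers was 6.81 on the FGF9 array and 6.86 on the control array of that pair, against 9.08 to 10.21 on the other 6 arrays. RNA came from whole cultures, so fewer cells of a type and less RNA per cell cannot be told apart.

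Same-numbered FGF9 and control arrays of a time share the first part of their array names, and they deviated together from their group means, with correlations over all genes of 0.819 at 10 days and 0.757 at 24 h. Each FGF9 difference is therefore given within these pairs. Tests come from limma with Benjamini-Hochberg adjustment over all 14506 genes at a threshold of 0.05, once without the pairs and once with each same-numbered FGF9 and control pair of a time as a block, called the replicate block.

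ADAMTS proteases are made as inactive precursors, lose their propeptide to furin-like convertases, and are inhibited by tissue inhibitors of metalloproteases (TIMPs), TIMP3 above the others for the aggrecan-cleaving members. Substrates fall into groups that follow the family tree. ADAMTS1, ADAMTS4, ADAMTS5, ADAMTS8 and ADAMTS9 cut the hyaluronan-binding proteoglycans aggrecan, versican, brevican or neurocan, which fill the matrix around neurons and form part of the glial scar. ADAMTS2 and ADAMTS3 trim procollagens, and in mice ADAMTS3 also cleaves reelin. ADAMTS7 is known for cutting cartilage oligomeric matrix protein.

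Start-site sequences are shown for Adamts1, Adamts4 and Adamts7, the genes whose FGF9 differences stand out below. They are RefSeq sequences of rat assembly GRCr8, each covering 250 bases before the gene start and 50 after it, read along the gene's strand. Adamts1 lies on the minus strand at chr11:38427335-38427634, Adamts4 on the plus strand at chr13:86202761-86203060, and Adamts7 on the plus strand at chr8:99584279-99584578. Capitals mark matches to 1 of 5 short motifs searched on both strands, named in the next paragraph.
Adamts1: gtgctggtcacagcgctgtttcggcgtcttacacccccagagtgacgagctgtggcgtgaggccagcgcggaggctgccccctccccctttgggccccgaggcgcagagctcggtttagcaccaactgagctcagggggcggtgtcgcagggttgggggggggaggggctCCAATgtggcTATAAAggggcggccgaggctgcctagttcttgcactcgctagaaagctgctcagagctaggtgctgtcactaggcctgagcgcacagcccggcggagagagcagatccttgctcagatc
Adamts4: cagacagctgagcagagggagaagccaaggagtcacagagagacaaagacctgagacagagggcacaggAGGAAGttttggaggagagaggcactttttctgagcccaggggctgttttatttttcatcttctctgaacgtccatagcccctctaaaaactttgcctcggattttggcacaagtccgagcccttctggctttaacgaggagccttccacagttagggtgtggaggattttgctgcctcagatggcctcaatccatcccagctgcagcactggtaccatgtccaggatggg
Adamts7: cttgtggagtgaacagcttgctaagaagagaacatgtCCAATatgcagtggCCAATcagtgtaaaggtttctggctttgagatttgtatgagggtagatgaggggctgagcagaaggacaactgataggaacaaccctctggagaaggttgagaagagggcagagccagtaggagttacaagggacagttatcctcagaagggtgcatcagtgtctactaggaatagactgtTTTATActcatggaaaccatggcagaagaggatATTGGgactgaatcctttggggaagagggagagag

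The motifs were AP-1 (TGANTCA), CRE (TGACGTCA), PEA3 (AGGAAG, a core bound by ETS factors such as Etv4), a TATA core (TATAAA) and the CCAAT box (CCAAT); the TATA core and CCAAT box were added after these sequences had been seen. No searched motif overlapped another in these 3 windows. The Adamts1 window held TATAAA starting 70 bases before the gene start and CCAAT starting 80 bases before it. The Adamts4 window held AGGAAG starting 181 bases before the start. The Adamts7 window held CCAAT at 213 and 199 bases before the start and, on the other strand, CCAAT at 16 bases after it and TATAAA at 18 bases before it. Of 33469 rat promoter windows of the same length, 14.2% held TATAAA, 37.5% held CCAAT, 34.5% held AGGAAG, 7.33% held TGANTCA and 1.83% held TGACGTCA. The letters of AP-1 and CRE were not in any of the 7 member windows searched, those of Adamts1, Adamts2, Adamts3, Adamts4, Adamts6, Adamts7 and Adamts9. GC content was 65.0% for Adamts1, 52.3% for Adamts4 and 46.7% for Adamts7.

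At 10 days, 4 of the 7 measured Adamts genes were higher with FGF9 and 3 lower. Of the 6 other than Adamts1, with the replicate block, 1 rose (Adamts4) and 0 fell, while 3.12% of all genes rose and 3.31% fell in that fit, 6.43% in all. Without the block 0 of 6 passed, as did 0% of all genes, and 0 of 6 reached an unadjusted p under 0.05, against 5.63% of all genes; with the block 4 of 6 did, against 24%. At 24 h, 5 of 7 were higher and 2 lower. Of the 6 other than Adamts7, 0 passed in either fit at 24 h, as did 0% of all genes. An unadjusted p under 0.05 was reached at 24 h by 0 of 6 without the block, against 1.93% of all genes, and by 2 of 6 with it (Adamts1 and Adamts9), against 12.4%. Without Adamts1, 3 of 6 were higher and 3 lower at 10 days, and without Adamts7, 4 of 6 were higher and 2 lower at 24 h. The median difference over the 7 genes was 0.21 at 10 days (0.02 over all genes) and 0.07 at 24 h (-0.00 over all genes). These medians include the 2 differences known beforehand and are given as a description.

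**Figure D1:**
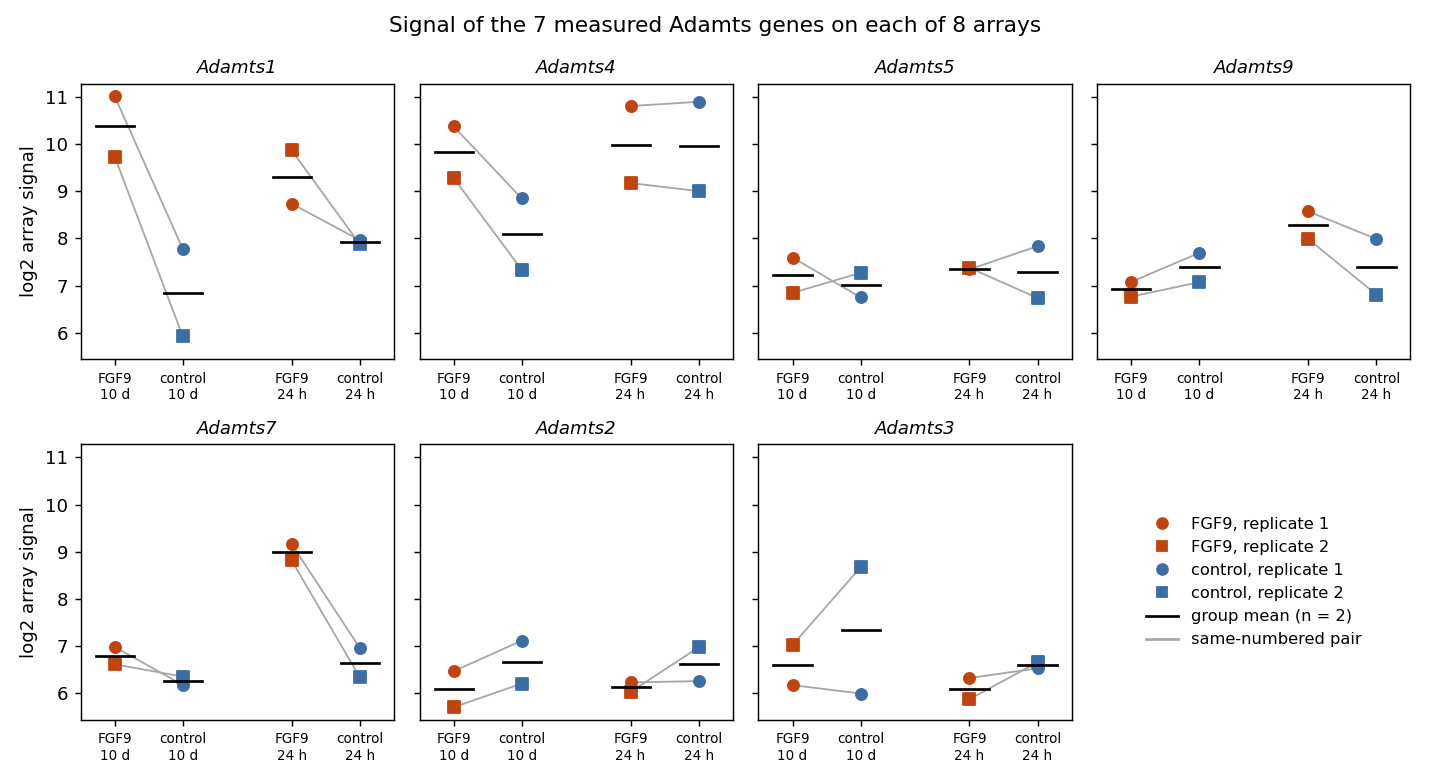
Log2 array signal (vertical axis) of the 7 measured Adamts genes, 1 panel a gene, in FGF9 and control cultures at 10 days and at 24 h. Circles are replicate 1 and squares replicate 2, grey lines join same-numbered arrays and black bars are means of 2 arrays; Adamts1 and Adamts4 lie above their controls in both pairs at 10 days, and Adamts7 in both pairs at 24 h.

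Adamts1, a protease of versican and aggrecan, had 11.01 and 9.73 log2 units in FGF9 cultures at 10 days, against 7.77 and 5.93 in control cultures at 10 days. Both FGF9 arrays lay above both control arrays. The difference was 3.52 (SE 0.73 without the block and 0.30 with it, n = 2 a group), an 11.5-fold higher signal, with within-pair differences of 3.24 and 3.81. It ranked 8 from the highest of 14506 genes. Without the block and leaving out 1 array it was 2.598 without control replicate 2, 2.88 without FGF9 replicate 1, 4.16 without FGF9 replicate 2 and 4.45 without control replicate 1. At 24 h, Adamts1 had 8.73 and 9.86 in FGF9 cultures, against 7.96 and 7.88 in control cultures, and again the groups did not overlap. That difference was 1.38 (SE 0.73 without the block, adjusted p = 1.00; SE 0.30 with it, adjusted p = 0.198), with pair differences of 0.77 and 1.99. For Adamts1 the FGF9 effect at 10 days minus that at 24 h was 2.14 (SE 0.43 with the block and 1.035 without it). For this difference of effects 0.0483% of all genes passed with the block and 0% without it, and 0 of the 5 members other than Adamts1 and Adamts7 passed in either fit. An unadjusted p under 0.05 was reached by 2 of those 5 with the block (Adamts4 and Adamts9), against 12.9% of all genes, and by 0 of 5 without it, against 1.9%.

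Adamts4, an aggrecanase also known to cut brevican and in mice expressed by oligodendrocytes, had 10.37 and 9.28 log2 units in FGF9 cultures at 10 days, against 8.85 and 7.33 in control cultures at 10 days. Both FGF9 arrays lay above both control arrays, but the spread within each group was wide because replicate 2 was lower than replicate 1 in both. The within-pair differences were close, 1.53 and 1.95. The mean difference was 1.74, a 3.33-fold higher signal; its SE was 0.90 without the block (adjusted p = 1.00) and 0.16 with it (adjusted p = 0.0163, 95% interval 1.34 to 2.14). Without the block and leaving out 1 array it was 0.98 without control replicate 2, 1.19 without FGF9 replicate 1, 2.28 without FGF9 replicate 2 and 2.49 without control replicate 1.

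At 24 h, Adamts4 had 10.80 and 9.17 in FGF9 cultures, against 10.89 and 9.00 in control cultures. The groups overlapped fully and each pair was nearly level, with differences of -0.08 and 0.17. The mean difference was 0.04, with a 95% interval of -0.36 to 0.44 in the fit with the block (adjusted p = 0.948). The FGF9 effect was 1.69 larger at 10 days than at 24 h (block SE 0.23), which did not pass over all genes (adjusted p = 0.156 with the block, 1.00 without it).

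Markers of myelinating oligodendrocytes were read beside Adamts4. Their mean over 7 genes at 10 days was 10.51 and 9.14 in FGF9 cultures, against 10.79 and 9.10 in control cultures. Its pair differences were -0.28 and 0.04, but of the 7 genes 3 were higher in both pairs and 3 lower in both. At 24 h the mean was 10.78 and 9.05 in FGF9 cultures, against 11.30 and 9.89 in control cultures, with 6 of 7 lower in both pairs. Means of other marker lists differed within pairs at 10 days. The neuron mean was lower by 0.86 and 0.91, with 10 of 10 markers lower in both pairs. The mean of 5 precursor markers of the oligodendrocyte lineage was higher by 0.54 and 1.10, with 4 of 5 higher in both pairs and 1 (Pdgfra) lower in both. The mean of 8 pericyte and smooth muscle markers was higher by 0.78 and 0.97, with 7 of 8 higher in both pairs. The mean of 4 ependymal and motile cilia markers differed by -0.57 and -0.97, with 4 of 4 lower in both pairs. For 4 Schwann cell markers the mean differed by 0.17 and 0.85, though only 1 was higher in both pairs and 2 were lower in both. The fibroblast and meningeal mean differed by -0.29 and -0.04. How many of all genes had the same sign in both pairs was not counted, so these marker counts have no baseline. The part of these cell types in the differences of Adamts1 and Adamts4 was not tested. Over the 8 arrays, which share pairs, the correlation of Adamts4 with the means of the 10 marker lists ran from -0.90 for neurons to 0.74 for Schwann cells; it was 0.72 for microglia and macrophages and 0.71 for myelinating oligodendrocytes.

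**Figure D2:**
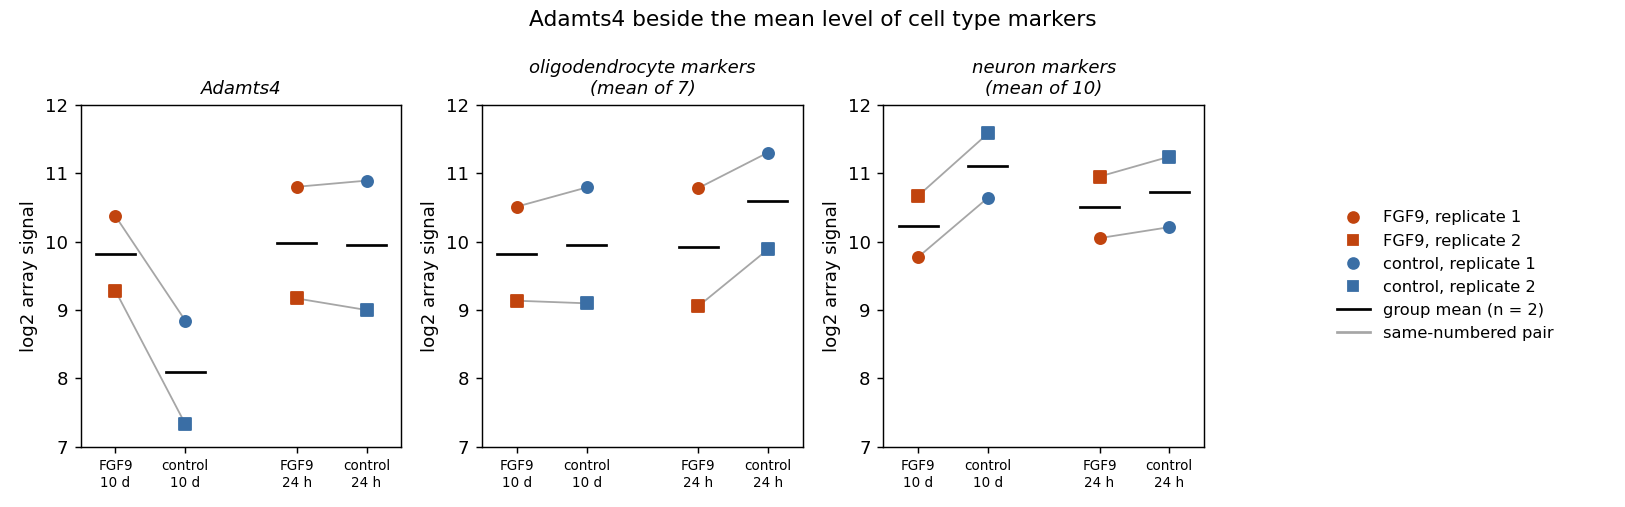
Log2 array signal by array of Adamts4 and of the means of 7 myelinating oligodendrocyte markers and 10 neuron markers, in FGF9 and control cultures at 10 days and at 24 h; circles are replicate 1, squares replicate 2 and lines join same-numbered arrays. Adamts4 was higher with FGF9 in both pairs at 10 days, and the neuron mean was lower in both pairs. The oligodendrocyte mean differed by -0.28 and 0.04, with 3 of 7 markers higher and 3 lower in both pairs.

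Adamts9, a protease of versican and aggrecan, went opposite ways at the 2 times. At 10 days it had 7.08 and 6.77 log2 units in FGF9 cultures, against 7.69 and 7.07 in control cultures, with pair differences of -0.62 and -0.31. At 24 h it had 8.57 and 7.98 in FGF9 cultures, against 7.98 and 6.81 in control cultures, with pair differences of 0.58 and 1.18. Groups overlapped at both times when pairs were ignored. Neither difference passed with the block: it was -0.46 at 10 days (block SE 0.19, adjusted p = 0.208) and 0.88 at 24 h (block SE 0.19, adjusted p = 0.194).

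Adamts5, the main aggrecanase of mouse cartilage, had 7.59 and 6.84 log2 units in FGF9 cultures at 10 days, against 6.75 and 7.27 in control cultures. At 24 h it had 7.34 and 7.37 in FGF9 cultures, against 7.83 and 6.74 in control cultures. Groups overlapped at both times and the pairs disagreed in sign, at 0.84 and -0.43 at 10 days and -0.49 and 0.64 at 24 h. The mean difference was 0.21 at 10 days (95% interval -0.70 to 1.12 with the block) and 0.07 at 24 h (95% interval -0.84 to 0.98), so neither direction was resolved. Its whole range over the 8 arrays was 1.10, the smallest of the 7 genes.

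Adamts7 showed its difference early. At 24 h it had 9.16 and 8.82 log2 units in FGF9 cultures, against 6.97 and 6.34 in control cultures. The groups were well apart, and the pair differences of 2.20 and 2.48 were close. The mean difference of 2.34 (SE 0.28 without the block and 0.18 with it) was a 5.05-fold higher signal and ranked 8 from the highest of 14506 genes. In the same pairs the marker means were lower by 0.16 and 0.29 for neurons, by 0.52 and 0.83 for myelinating oligodendrocytes and by 0.60 and 1.02 for astrocytes. Fibroblast, pericyte, Schwann cell and ependymal means were also lower in both pairs, and the microglia mean disagreed in sign. The endothelial mean was higher by 0.21 and 0.19, and that of oligodendrocyte precursors by 0.02 and 0.02. The part of these cell types in the Adamts7 difference was not tested.

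At 10 days, Adamts7 had 6.99 and 6.62 in FGF9 cultures, against 6.18 and 6.36 in control cultures. The groups did not overlap, but the pair differences were smaller, 0.81 and 0.26, and the mean of 0.53 (block SE 0.18) did not pass (adjusted p = 0.142 with the block, 1.00 without). The FGF9 effect at 10 days minus that at 24 h was -1.80 (SE 0.25 with the block and 0.40 without it).

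Adamts2 and Adamts3, both procollagen proteases, had negative mean differences at both times, none of which passed. Adamts2 had 6.47 and 5.71 log2 units in FGF9 cultures at 10 days, against 7.12 and 6.21 in control cultures, and 6.23 and 6.04 in FGF9 cultures at 24 h, against 6.26 and 6.98 in control cultures. All 4 pair differences were negative, from -0.94 to -0.03. The mean was -0.57 at 10 days (block SE 0.23, adjusted p = 0.200) and -0.49 at 24 h (block SE 0.23, adjusted p = 0.456), so neither passed.

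Adamts3 had 6.18 and 7.03 log2 units in FGF9 cultures at 10 days, against 5.999 and 8.67 in control cultures. The control value of 8.67, from the pair of arrays that stood apart, was the highest of the 8. Pair differences were 0.18 and -1.65, and the mean of -0.73 (block SE 0.41, adjusted p = 0.352) turned to 0.18 without that pair. At 24 h it had 6.33 and 5.88 in FGF9 cultures, against 6.53 and 6.66 in control cultures, a difference of -0.49 (block SE 0.41, adjusted p = 0.681). The other Adamts3 feature was likewise highest, at 6.97, on the same control array. Over the 8 arrays Adamts3 correlated at 0.81 with the mean of 4 ependymal and motile cilia markers and at -0.81 with each of the endothelial and the fibroblast means, as a description.

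**Figure D3:**
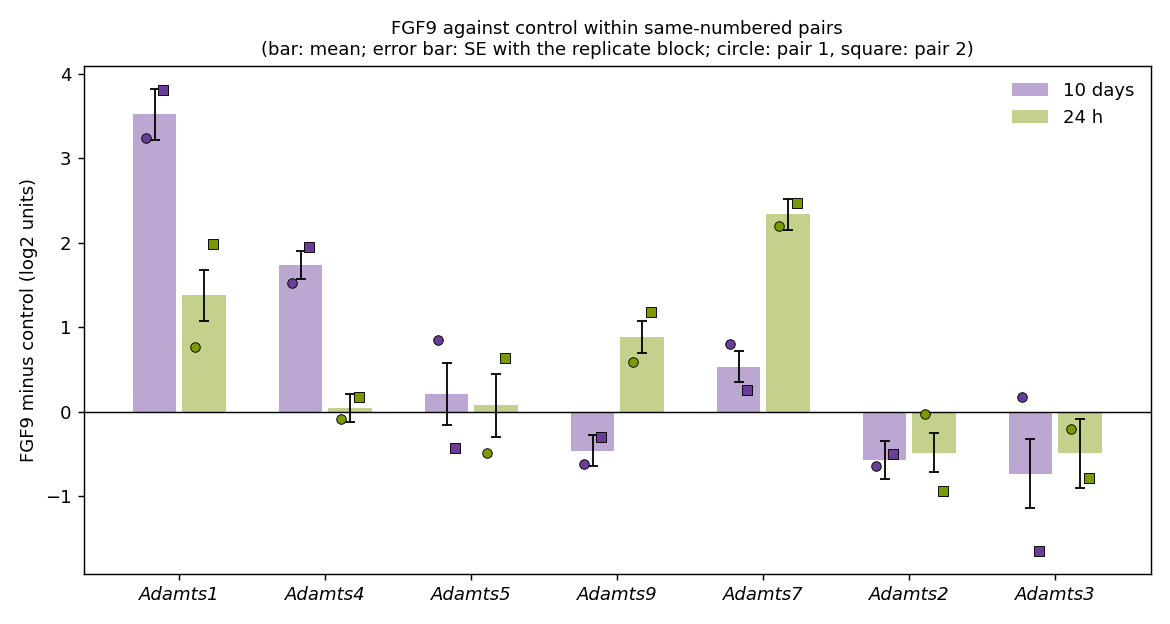
FGF9 minus control in log2 units for the 7 measured Adamts genes at 10 days and at 24 h; bars are means of 2 same-numbered pairs, error bars the standard error of the fit with the replicate block, and points the pairs. Adamts1 and Adamts4 were highest at 10 days (3.52 and 1.74) and Adamts7 at 24 h (2.34), and Adamts9 lay on opposite sides of 0 at the 2 times.

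Groups that do not overlap are common with 2 arrays a group, at 26.2% of all genes at 10 days and 32.1% at 24 h. At 10 days 2 of the 6 Adamts genes other than Adamts1 (Adamts4 and Adamts7) had both FGF9 arrays above both control arrays, as did 14.9% of all genes, and 0 of 6 had both below, against 11.3%. At 24 h 1 of the 6 other than Adamts7 (Adamts1) had both above, as did 17.5% of all genes, and 2 of 6 (Adamts2 and Adamts3) had both below, against 14.5%.

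Time in culture was compared within treatment, and these comparisons share arrays with those above. Between 10 days and 24 h in control cultures 0 of the 5 genes other than Adamts1 and Adamts7 passed, without a block (0% of all genes) or with the array name prefix as a block (0.00689%), an alternative added after seeing the data. An unadjusted p under 0.05 was reached by 0 of 5 without the block (2.86% of all genes) and by 1 of 5, Adamts9, with it (13.7%). In FGF9 cultures 0 of 5 passed without a block, as did 0% of all genes; 1 of 5 had an unadjusted p under 0.05, against 9.86%. With the prefix as a block 1 of 5, Adamts4, rose and 0 fell, in a fit in which 11% of all genes passed (4.88% higher, 6.07% lower); 2 of 5 had an unadjusted p under 0.05, against 27.7%. The Adamts4 difference was 1.37 with the prefix as a block (SE 0.20, adjusted p = 0.0170) but -0.16 without it (SE 0.90, adjusted p = 0.977). With the prefix as a block Adamts1 differed by 1.59 (SE 0.37) and Adamts7 by -1.90 (SE 0.22), and without it by 1.07 and -2.19. One prefix is found at both times, on replicate 1 at 10 days and replicate 2 at 24 h. With the prefix as a block, the times are linked only through that prefix, which has 1 FGF9 and 1 control array at each time. The SEs and p-values of that fit therefore do not measure replicate spread of a change over time. Within that prefix, 10 days minus 24 h in FGF9 cultures was 1.15 for Adamts1, 1.20 for Adamts4, -1.83 for Adamts7 and -0.90 for Adamts9. In control cultures it was -0.10, -0.15, -0.16 and 0.89 for the same genes.

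Of the later family members, 4 of 10 listed were measured (Adamts12, Adamts14, Adamts15 and Adamts19). This list and those below were drawn up with earlier results of these arrays known, so their counts are given as a description. Of the 4 genes 0 passed in either fit at either time, against 6.43% of all genes at 10 days with the block and 0% otherwise. At 10 days 1 of 4, Adamts14, reached an unadjusted p under 0.05 with the block, against 24% of all genes. Adamts14, a procollagen protease, had 5.34 and 6.32 log2 units in FGF9 cultures at 10 days, against 4.81 and 5.09 in control cultures. The difference was 0.88 (block SE 0.22, adjusted p = 0.0694). Both control values lay under the lower quartile of their arrays (5.50 and 5.48), so the gene was dim there. Adamts12, the nearest relative of Adamts7, had 8.98 and 6.58 in FGF9 cultures at 10 days, against 9.73 and 5.92 in control cultures. Its replicate 2 arrays were low in both groups and its pairs disagreed in sign. Adamts15, another aggrecanase, differed by -0.63 at 10 days with pairs at -1.45 and 0.18, and by -0.57 at 24 h. Of the ADAMTS-like genes, which encode relatives without a protease domain, 3 of 6 were measured. Here too 0 passed in either fit at either time, against 6.43% of all genes at 10 days with the block and 0% otherwise. Adamtsl3 at 24 h had 8.87 and 7.76 in FGF9 cultures, against 7.34 and 6.58 in control cultures, a difference of 1.35 (block SE 0.23, adjusted p = 0.141).

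Among the hyaluronan-binding substrates and their partners, 9 of 10 listed genes were measured. At 10 days with the block 2 of 9 rose (Ncan and Hapln2) and 0 fell, against 3.12% and 3.31% of all genes. The list median was 0.57 (0.02 over all genes). Without the block 0 of 9 passed at 10 days, as did 0% of all genes. At 24 h 0 passed in either fit, as did 0% of all genes, with a median of 0.08. Ncan, which encodes neurocan, a brain proteoglycan, had 11.67 and 12.43 log2 units in FGF9 cultures at 10 days, against 9.73 and 10.84 in control cultures. The difference was 1.77 (block SE 0.15, adjusted p = 0.0143). Without the block its SE was 0.48 (adjusted p = 0.631). At 24 h the Ncan difference was 0.85 (adjusted p = 0.141 with the block). Hapln2, a link protein of nodes of Ranvier, had 8.81 and 7.08 in FGF9 cultures at 10 days, against 6.58 and 6.13 in control cultures. Its pairs differed by 2.24 and 0.95 (mean 1.59, block SE 0.30, adjusted p = 0.0390). The SE was 1.32 without the block, where Hapln2 did not pass.

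Bcan, which encodes brevican, had 11.72 and 11.85 log2 units in FGF9 cultures at 10 days, against 11.41 and 10.58 in control cultures, and 10.29 and 10.02 in FGF9 cultures at 24 h, against 10.91 and 10.95 in control cultures. Groups did not overlap at either time and the direction was opposite, at 0.79 at 10 days and -0.77 at 24 h, though neither passed (adjusted p = 0.118 and 0.308 with the block). Vcan (versican) differed by 0.12 at 10 days (adjusted p = 0.786 with the block) and 0.43 at 24 h. Acan (aggrecan) lay between 4.95 and 5.97 on all 8 arrays, under the median of every array, and differed by 0.09 at 10 days (adjusted p = 0.887 with the block). Hapln3, another link protein, differed by 0.80 at 10 days (adjusted p = 0.0552 with the block). Its control values at 10 days, 5.16 and 5.25, lay under the lower quartile of their arrays.

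Of the procollagens and other matrix substrates, 13 of 14 listed were measured. At 24 h 0 passed in either fit, as did 0% of all genes (median -0.23). At 10 days 0 passed without the block, as did 0% of all genes. With the block at 10 days 0 rose and 1 fell, against 3.12% and 3.31% of all genes (median -0.13). The one that fell was Fmod, which encodes fibromodulin, a collagen-binding proteoglycan. It had 7.37 and 5.88 log2 units in FGF9 cultures at 10 days, against 8.25 and 7.63 in control cultures (difference -1.31, block SE 0.24, adjusted p = 0.0381). The SE was 0.96 without the block, where Fmod did not pass. Reln, the reelin gene, had 9.04 and 7.56 in FGF9 cultures at 10 days, against 9.61 and 9.13 in control cultures. Its difference of -1.07 and that of Thbs1 (thrombospondin 1), -1.11, did not pass with the block (adjusted p = 0.0581 and 0.0658). The neuron marker mean was lower by 0.86 and 0.91 in the same pairs. At 24 h that mean differed by -0.16 and -0.29, and Reln by 0.12 and -0.00017. The part of neurons in the Reln difference was not tested.

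Of 13 listed inhibitors, activating convertases and clearance receptors, 12 were measured. At 10 days with the block 2 rose (Timp1 and Timp4) and 0 fell, against 3.12% and 3.31% of all genes (median 0.08). Without the block 0 passed at 10 days, as did 0% of all genes. At 24 h 0 passed in either fit, as did 0% of all genes (median -0.24). Timp1 had 12.77 and 12.47 log2 units in FGF9 cultures at 10 days, against 11.03 and 9.73 in control cultures, a difference of 2.24 (block SE 0.24, adjusted p = 0.0173). Timp4 had 10.24 and 11.13 in FGF9 cultures at 10 days, against 8.64 and 9.06 in control cultures, a difference of 1.83 (block SE 0.19, adjusted p = 0.0173). Without the block neither passed at 10 days. Timp1 then had an SE of 0.41 (adjusted p = 0.397) and Timp4 of 0.42 (adjusted p = 0.536). At 24 h Timp1 differed by 1.04 and Timp4 by -0.48, and neither passed. Timp3, the inhibitor best known for this family, had 10.70 and 11.50 in FGF9 cultures at 10 days, against 11.76 and 11.54 in control cultures; the pairs gave -1.06 and -0.04, and the mean of -0.55 did not pass (adjusted p = 0.245 with the block). Pcsk6, a convertase that removes propeptides, differed by 0.71 at 10 days (adjusted p = 0.0837 with the block).

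**Figure D4:**
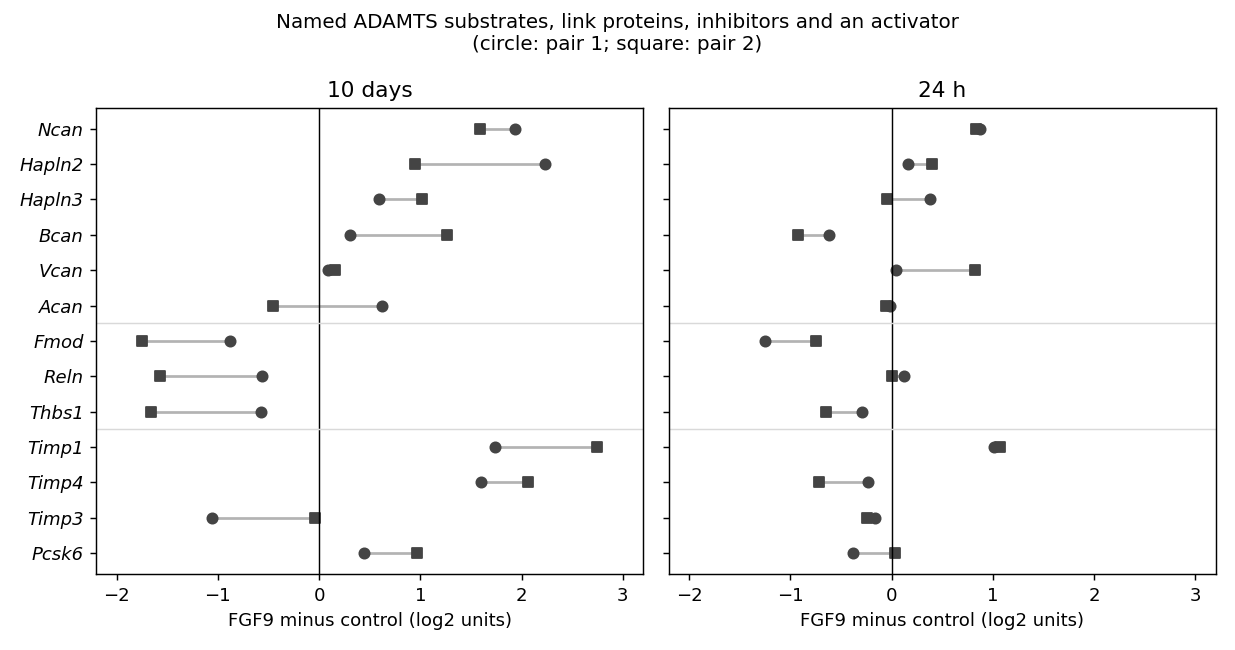
FGF9 minus control in log2 units within each same-numbered pair (circle pair 1, square pair 2, joined by a grey line for each gene), at 10 days and at 24 h, for substrates and link proteins, other substrates, and inhibitors and a convertase. At 10 days Ncan, Hapln2, Timp1 and Timp4 lay above 0 and Fmod below 0 in both pairs, and Timp3 gave -1.06 and -0.04.

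Transcripts known to follow FGF receptor and ERK signalling were higher with FGF9 in 14 of 14 listed genes at both times. The list was drawn up with earlier results of these arrays known, so its counts and p-values are given as a description. With the block 12 of 14 rose at 10 days, against 3.12% of all genes (median 1.28). Without it 0 of 14 passed at 10 days, as did 0% of all genes. At 24 h 0 passed in either fit, as did 0% of all genes (median 0.78). With the block 12 of 14 had an unadjusted p under 0.05 at 24 h, against 12.4%. Etv4, an ETS transcription factor, had 8.37 and 8.50 log2 units in FGF9 cultures at 10 days, against 6.03 and 5.84 in control cultures. The difference was 2.50 (SE 0.16 with the block, adjusted p = 0.00650, and SE 0.19 without it, adjusted p = 0.0660). At 24 h Etv4 had 7.20 and 7.46 in FGF9 cultures, against 6.91 and 6.89 in control cultures, a difference of 0.43.

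The 7 Adamts genes did not share 1 pattern over the 8 arrays. Pairwise Pearson correlations, given as a description over arrays that share pairs, ran from -0.66 for Adamts1 with Adamts3 to 0.76 for Adamts7 with Adamts9. Among all other genes those most like Adamts1 were Fkbp10 (0.984), a collagen chaperone, Cbr3 (0.977) and Timp1 (0.976). Those most like Adamts4 were Josd2 (0.989), Ube2c (0.974) and Mtmr2 (0.971). Those most like Adamts7 were Orc1 (0.980), a subunit of the replication origin complex, and Jpt2 (0.956). For Adamts3 they were St8sia5 (0.989), Mef2a (0.987) and Tekt1 (0.985), the last being 1 of the cilia markers, and for Adamts2 Bco2 (0.976), Epyc (0.959) and Fibin (0.954).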

How the data were processed

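The deposited values are log2 signals, 1 per feature and array. No label names the scale, which was inferred from the range of values. Partek 6.5 and GCRMA, which corrects probe background by base content and summarizes probe sets, were used by the authors according to the submitters' processing notes. Order of steps and genome build: not given in the sources used here. Background correction of this kind can alter differences of dim genes, and its effect was not tested. No read depth applies, and the 2 arrays a group limit the precision.

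The table has 29214 features, of which the annotation gave 1 symbol to 15310, several to 323 and none to 13581; only the first kind was used. Entrez identifiers of 15279 were found in the RefSeq table, with 0 symbols changed. The highest-mean feature was taken for the 527 genes with more than 1, leaving 14506 genes.

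The limma package (version 3.58.1, in R 4.3.3) fitted 1 mean per group to all 8 arrays, leaving 4 residual degrees of freedom, and p-values were adjusted by Benjamini-Hochberg over the 14506 genes. The fit with the replicate block had 2 residual degrees of freedom and a median residual SD of 0.145, against 0.30 without it. Pairing rests on shared array name prefixes, whose meaning the labels do not give, and on the correlations in the text. The scripts were tested on simulated data.

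The members, gene lists, tests and naming rule were chosen with earlier results of these data known. From each list up to 3 genes with the smallest unadjusted p at 10 days with the block were eligible to be named, besides the members, Timp3, Acan, Bcan, Ncan, Vcan, Adamts12 and Adamts15, and 3 most similar genes per member by Pearson correlation; Pdgfra was named after its values were seen. The similar genes of Adamts5 and Adamts9, 3 of them olfactory receptor genes, and 1 olfactory receptor gene similar to Adamts7 are not listed. Sequences are from RefSeq (GRCr8), matched by symbol.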

Additional observations from a re-analysis of the deposited data

Results flagged for a closer look

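Adamts9 was picked out because its FGF9 effect had opposite signs at the 2 times in every pair: -0.62 and -0.31 at 10 days, and 0.58 and 1.18 at 24 h. The effect at 10 days minus that at 24 h was -1.34. Tested as an interaction in limma it did not pass over all genes (adjusted p = 1.00 without the block, 0.237 with it). Of all 14506 genes, 1965 (13.5%) showed opposite signs in every pair in this way. Leaving out each array in turn gave -1.93 to -0.75.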

How the results depend on the processing

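Alternatives were the replicate block (fixed, random, and without each pair), each array left out, quantile normalization, subtracted array medians, limma-trend, leaving out genes below the lower quartile of mean level and averaging a gene's features. Added after seeing the data were the array name prefix as a block for the time comparisons and leaving out both arrays that stood apart (without a block). No paired analysis was possible for the time comparisons because each pair lies within 1 time. Counts of genes passing were 0 in all 5 comparisons without the block and stayed 0 when any single array was left out. For FGF9 at 10 days they were 933 with the replicate block, 605 with a random block, 469 with the block without either 24 h pair, 1506 and 569 with the block without 10-day pair 1 and pair 2, and 6 with array medians subtracted. At 24 h the counts were 1 with the random block and 237 with the block without either 10-day pair. For the difference of effects they were 7 with the replicate block, 10 with the random block, and 1, 322 and 9 with the block without 24 h pair 1, 10-day pair 1 and 10-day pair 2. With the prefix block, which links the times through 1 prefix only, the time comparison gave 1 gene in control and 1589 in FGF9 cultures. The FGF9 cultures gave 4 with medians subtracted. Block fits without a pair keep 1 FGF9 and 1 control array at that time, so their counts do not measure replicate spread there.

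Adamts4 at 10 days passed in all replicate block fits, fixed and random (adjusted p = 0.00642 to 0.0446), also without the pair that stood apart (difference 1.53, adjusted p = 0.0241). Without 10-day pair 1, with the block, the effect difference of Adamts4 was 1.90 and the Adamts3 difference at 10 days was -1.65. Both again rest on 1 pair at 10 days. Adamts1, Adamts4 and Adamts7 kept their direction at 10 days, as did Adamts1, Adamts7 and Adamts9 at 24 h, in all settings run. Adamts2 and Adamts9 at 10 days, and Adamts2 and Adamts3 at 24 h, stayed negative in all settings run. The difference of effects kept its sign for Adamts1, Adamts4, Adamts7 and Adamts9.

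Signs turned in some of the other comparisons, and none of these values passed except Adamts4 in FGF9 cultures over time (1.37, prefix block). Adamts2: difference of effects 0.37 without 24 h pair 1; FGF9 cultures over time 0.000626 (quantile), 0.24 (prefix block) and 0.34 (without both arrays that stood apart). Adamts3: 0.18 at 10 days without 10-day pair 2, with or without the block; difference of effects 0.0495 without 24 h pair 1 and 0.67 without 10-day pair 2; over time -0.0612 (prefix block) and -0.60 (without both arrays) in control and -0.30 (prefix block) in FGF9 cultures. Adamts4: -0.0830 at 24 h without 24 h pair 2; 0.39 over time in FGF9 cultures without both arrays. Adamts5: -0.43 at 10 days without 10-day pair 1 and -0.49 at 24 h without 24 h pair 2; difference of effects -0.50 without 10-day pair 1 and -0.43 without 24 h pair 1; over time 0.18 (prefix block) and 0.24 (without both arrays) in FGF9 and 0.0477 (prefix block) in control cultures. Adamts9 over time in control cultures: 0.0207 (medians subtracted), 0.66 (prefix block) and 0.30 (without both arrays). The causes were not tested. Leaving out 1 array at a time without the block turned signs in these ranges: Adamts2 difference of effects -0.54 to 0.37, over time in FGF9 cultures -0.43 to 0.34 and in control cultures -0.41 to 0.50; Adamts3 at 10 days -2.07 to 0.60, difference of effects -1.58 to 1.10, control over time -0.60 to 2.08; Adamts4 at 24 h -0.90 to 0.99, FGF9 cultures over time -0.98 to 0.66; Adamts5 at 10 days -0.17 to 0.58, at 24 h -0.48 to 0.62, difference of effects -0.41 to 0.68, over time in FGF9 cultures -0.51 to 0.24 and in control cultures -0.82 to 0.27; Adamts9 control over time -0.60 to 0.58.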
